A study of Ovis aries with 6 samples.

Results

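Immediate early genes of the ovine choroid plexus were followed across day length and thyroid loss. They were taken from a list of 37 genes by symbol, and 35 met the rule of a mean of at least 0.2 CPM over the 6 pools, among 33609 genes counted and 18019 tested; all 35 passed the filter on low counts and were tested. Levels are CPM, read counts relative to the size of the library, here with TMM factors that correct for unequal composition of the pools. Only the rule used plain totals. The choroid plexus, the vascularised tissue that secretes cerebrospinal fluid, came from 3 groups of ewes: thyroidectomised ewes kept in long days (THX), control ewes in long days (Long) and control ewes in short days (Short). The series' design text gives 7 THX ewes and 8 ewes in each of the other groups (although its stated total is 1 ewe higher than these sum to) and 2 pools per group, each mixing equal amounts of RNA from 3 to 4 ewes. The labels name no sham operation, hormone replacement, age, or time and manner of tissue collection. Each value is therefore an average over several animals, and p-values measure the spread between pools, not between ewes.

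Immediate early genes are the first to be transcribed when a cell receives a growth factor, a calcium signal, stress or mechanical strain, and they need no new protein synthesis for it. Kinases of the ERK and calcium pathways act on factors already bound to their promoters, chiefly SRF with its partners and CREB, and the short-lived messages then decay within a short time. Many encode transcription factors (AP-1, EGR and NR4A proteins), while others encode phosphatases and RNA decay factors that end the response. Because the response starts so fast, these messages are also known to be sensitive to the way a tissue is handled at collection.

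The rule left a wide gap at its threshold. EGR2, the member nearest to it from above, averaged 0.791 CPM. FOSL1 and ARC, the members outside it, averaged 0.121 and 0.0652 CPM, with 2 to 15 counts per pool for FOSL1 and 1 to 6 for ARC. Among the 35 tested members a pool held from 26 to 18671 counts of a gene. Library totals ran from 48282883 to 82100653 counts. The tissue label was checked against 15 epithelial markers, TTR and KL among them, of which 14 were tested. Their summed level was 128174 and 149851 CPM in THX, 117125 and 119127 CPM in Long, and 97356 and 102685 CPM in Short.

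Most immediate early genes were low in the same 2 pools, which belong to different groups. Taken as the median over the 35 members of log2(CPM + 0.5) minus the mean of the 6 pools, the members lay at −0.23 in THX pool 1, against 0.09 in THX pool 2. They lay at 0.19 and 0.10 in Long pools 1 and 2, and −0.26 and 0.08 in Short pools 1 and 2. THX pool 1 and Short pool 1 thus stood below the other 4 pools, which lay close together. The lowest of the 6 values was found in one of these 2 pools for 29 of 35 members (82.9%), where 40.5% of all tested genes had their lowest value there. For 20 of 35 members (57.1%) these pools were the 2 lowest, against 9.81% of all tested genes. The highest value was in a Long pool for 22 members (62.9%), against 22.2% of all tested genes. These orders were noticed in the values and are given as a description, with no test.

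**Figure D1:**
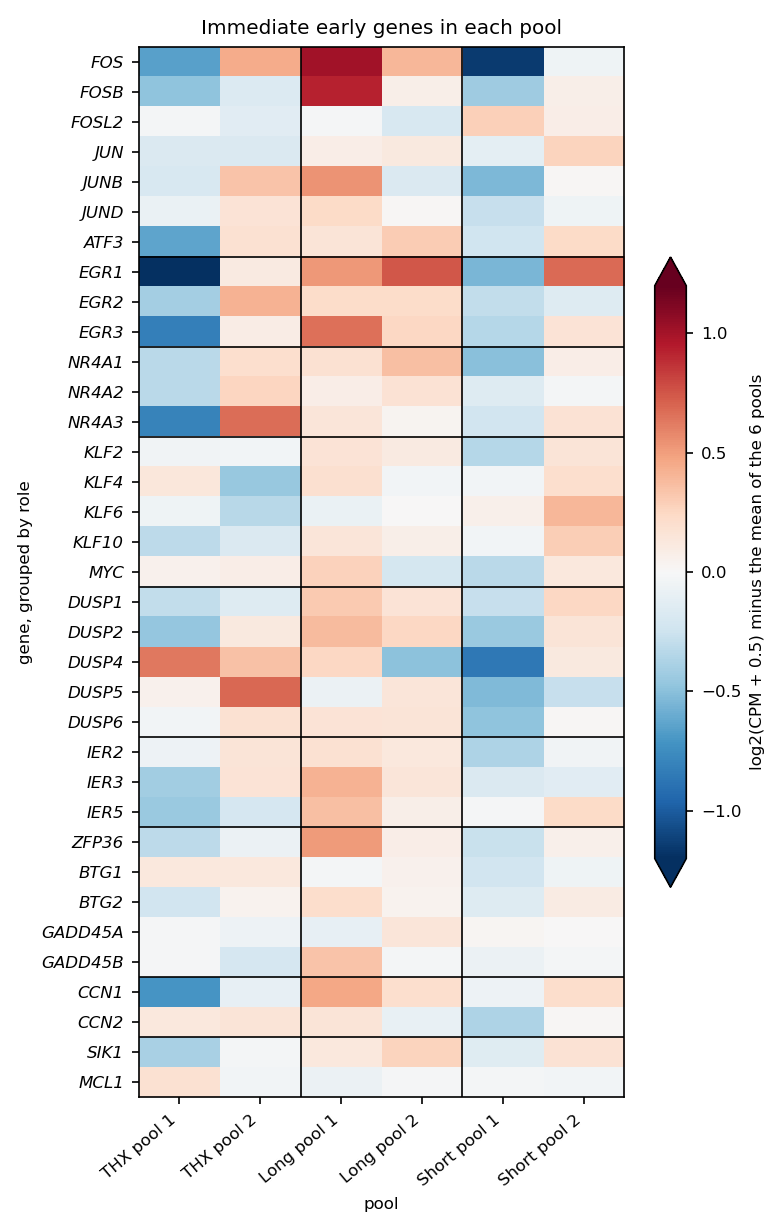
Level of each of the 35 immediate early genes (rows, grouped by role with lines between groups) in each of the 6 pools (columns), as log2(CPM + 0.5) minus the mean of the 6 pools. Blue is below and red above that mean; THX pool 1 and Short pool 1 are blue for most genes of the AP-1, EGR and NR4A groups, and EGR1 in THX pool 1 is among the darkest cells.

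Pools of the same group differed more in these genes than in the tested genes within the same wide range of level. The median absolute log2 difference between the 2 pools of a group was 0.28 in THX, 0.18 in Long and 0.33 in Short over the members. It was 0.17, 0.09 and 0.13, in the same order of groups, over the 14566 tested genes within the members' range of mean level. That range ran from 0.796 to 225 CPM, and the members are among those genes. Pool 1 was below pool 2 for 27 of 35 members in THX and 32 of 35 in Short, and for 11 of 35 in Long. Among those 14566 genes the shares were 50.5% in THX, 48.2% in Short and 50.3% in Long. From lowest to highest pool 12 members (34.3%) spanned more than 2-fold, against 11.6% of those 14566 genes.

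Among the subunits of AP-1, the dimeric transcription factor made of FOS and JUN family proteins, FOS and FOSB varied most. In the values that follow, pool 1 of a group is given before pool 2. FOS, which pairs with JUN proteins, had 3.66 and 8.45 CPM in THX, 12.7 and 8.13 CPM in Long and 2.46 and 5.82 CPM in Short pools. Its highest and lowest pools were 5.15-fold apart, and the THX pools overlapped with those of the other groups. FOSB, a relative of FOS, had 1.67 and 2.199 CPM in THX, 5.26 and 2.69 CPM in Long and 1.76 and 2.69 CPM in Short pools. Long pool 1 alone stood high. JUNB, an AP-1 subunit that often opposes JUN, had 17.4 and 25.4 CPM in THX, 29.2 and 17.6 CPM in Long and 13.6 and 20.2 CPM in Short pools, so every group overlapped with the others. ATF3, a stress-induced repressor of the same protein class, had 2.82 and 5.36 CPM in THX, 5.23 and 5.85 CPM in Long and 3.88 and 5.56 CPM in Short pools.

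The other AP-1 subunits were steadier. JUN had 37.2 CPM in each THX pool, 44.2 and 45.4 CPM in Long and 38.7 and 50.6 CPM in Short pools, and both THX pools lay below all others. JUND, the member of the JUN family that cells make without stimulation, had 132 and 155 CPM in THX, 164 and 140.2 CPM in Long and 115.0 and 134 CPM in Short pools. FOSL2, a FOS relative that accumulates later in the response, had 80.9 and 75.2 CPM in THX, 81.7 and 72.2 CPM in Long and 100.3 and 87.2 CPM in Short pools. FOSL2 was one of the few members with both Short pools above the other 4.

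The EGR zinc finger factors, activated through SRF, held the widest range. EGR1 had 4.17 and 13.7 CPM in THX, 18.4 and 21.5 CPM in Long and 8.50 and 20.6 CPM in Short pools. Its lowest and highest pools were 5.17-fold apart, and Short pool 2 lay among the Long values. EGR3 spanned 1.55 to 5.21 CPM with the same 2 pools lowest, and EGR2 spanned 0.458 to 1.19 CPM. Of the NR4A orphan nuclear receptors, NR4A1 had 20.1 and 29.3 CPM in THX, 28.8 and 32.6 CPM in Long and 17.8 and 26.8 CPM in Short pools. NR4A3 ran from 0.810 CPM in THX pool 1 to 3.15 CPM in THX pool 2, so that its extremes lay within 1 group. NR4A2 ran from 2.27 to 3.63 CPM, again between the 2 THX pools.

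**Figure D2:**
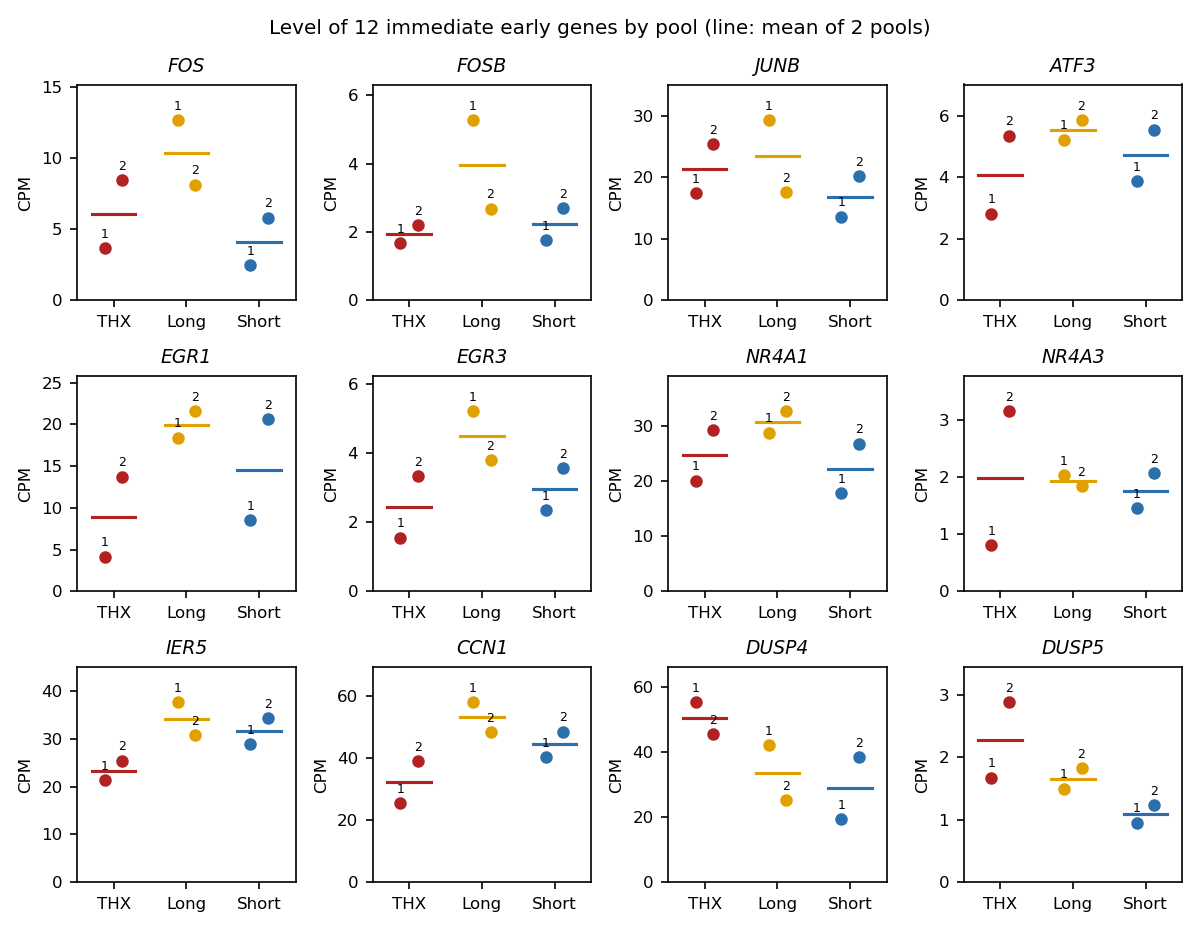
CPM of 12 immediate early genes in each pool, on linear axes from 0, with THX left, Long in the middle and Short right; points carry the pool number and lines mark the mean of the 2 pools. Pool 1 is the lower THX pool and the lower Short pool for every gene shown except DUSP4, whose THX pool 1 is the higher. Of all 35 members, 27 had pool 1 lower in both THX and Short. For IER5 and CCN1 both THX values also lie below all others.

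KLF factors and MYC showed less of this pattern. KLF2, a factor induced in endothelium by flow, had 53.4 and 53.8 CPM in THX, 61.9 and 59.3 CPM in Long and 43.2 and 61.4 CPM in Short pools. KLF6 had 29.9 and 24.5 CPM in THX, 29.2 and 31.0 CPM in Long and 32.2 and 40.9 CPM in Short pools, with the Short pools highest. KLF10, induced by TGF-beta, had 8.17 and 9.05 CPM in THX, 11.4 and 10.8 CPM in Long and 10.0 and 12.7 CPM in Short pools, so both THX pools were below all others. KLF4 and MYC ranged over 6.37 to 10.3 CPM and 7.88 to 12.2 CPM, with overlap in every comparison.

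The dual-specificity phosphatases, which switch off MAP kinases, divided among themselves. DUSP1, a nuclear phosphatase of p38, JNK and ERK, had 23.2 and 25.7 CPM in THX, 35.5 and 32.1 CPM in Long and 23.5 and 34.0 CPM in Short pools. DUSP4, a nuclear phosphatase, had its highest values in THX, with 55.2 and 45.5 CPM in THX, 42.1 and 25.2 CPM in Long and 19.4 and 38.5 CPM in Short pools. DUSP5, a nuclear ERK phosphatase, had 1.67 and 2.88 CPM in THX, 1.499 and 1.82 CPM in Long and 0.958 and 1.23 CPM in Short pools. DUSP4 and DUSP5 thus had their highest pool in THX, unlike FOS or EGR3. The same held for DUSP6, EGR2, NR4A2, NR4A3, BTG1 and MCL1. DUSP6, the cytoplasmic ERK phosphatase, had 48.5 and 56.3 CPM in THX, 55.6 and 55.4 CPM in Long and 35.5 and 50.01 CPM in Short pools. DUSP2 ranged over 0.810 to 1.86 CPM with THX pool 1 and Short pool 1 lowest.

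The remaining members include feedback and growth arrest genes. IER5, a regulator of the heat shock factor HSF1, had 21.3 and 25.4 CPM in THX, 37.5 and 30.7 CPM in Long and 28.8 and 34.2 CPM in Short pools. It was 1 of the members in which both THX pools lay below the other 4. IER2 had 16.8 and 19.6 CPM in THX, 20.1 and 19.3 CPM in Long and 13.5 and 17.0 CPM in Short pools, and IER3 ranged over 9.73 to 17.7 CPM. ZFP36, which binds AU-rich messages and speeds their decay, had 12.6 and 15.1 CPM in THX, 22.8 and 16.8 CPM in Long and 13.1 and 16.6 CPM in Short pools. BTG1, an antiproliferative gene, had 172 and 171 CPM in THX, 155 and 163 CPM in Long and 134 and 151 CPM in Short pools. The groups of BTG1 did not overlap in any comparison. Its relative BTG2 and the growth arrest gene GADD45B ranged over 24.6 to 33.5 CPM and 11.3 to 16.7 CPM. GADD45A, at 7.03 to 8.39 CPM, was close to flat.

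CCN1, a secreted matricellular protein induced by growth factors and by YAP signalling, had 25.5 and 39.0 CPM in THX, 57.8 and 48.2 CPM in Long and 40.2 and 48.5 CPM in Short pools. Both THX values were below all others, with THX pool 1 lowest. Its relative CCN2 ranged over 14.0 to 20.4 CPM, with both THX pools near the top. SIK1, a CREB-induced kinase that restrains CREB coactivators, had 63.2 and 81.1 CPM in THX, 90.2 and 99.5 CPM in Long and 74.6 and 93.2 CPM in Short pools. MCL1, a short-lived survival protein of the BCL2 family, had 255 and 219 CPM in THX, 214 and 222 CPM in Long and 221 and 219 CPM in Short pools, with THX pool 1 above the other 5.

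The comparison of THX with Long pools asks what loss of the thyroid does at constant day length. No member passed the quasi-likelihood test of edgeR over all genes (adjusted p under 0.05), where 0.283% of all tested genes did. At an unadjusted p under 0.05 stood 6 members, all lower in THX pools, which is 17.1% against 4.92% of all tested genes in that direction; 0 were higher, where 4.16% of all tested genes were (9.08% in either direction). These 6 were IER5, CCN1, FOSB, DUSP1, ZFP36 and SIK1. IER5 averaged 23.3 ± 2.88 CPM in THX and 34.1 ± 4.83 CPM in Long pools (SD, n = 2 each; log2 difference −0.55, SE 0.145, adjusted p = 0.277). CCN1 averaged 32.2 ± 9.58 CPM in THX and 53.0 ± 6.80 CPM in Long pools (log2 difference −0.72, SE 0.205, adjusted p = 0.322). FOSB averaged 1.94 ± 0.373 and 3.97 ± 1.82 CPM in THX and Long pools (log2 difference −1.04, SE 0.376, adjusted p = 0.468). DUSP1, ZFP36 and SIK1 had log2 differences of −0.47, −0.52 and −0.39 with adjusted p-values of 0.473, 0.478 and 0.492. EGR1 was further from 0 at −1.15, but with an SE of 0.573 (adjusted p = 0.633). Its pools lay far apart in both THX and Short, and the SE comes from the fit to all 6 pools. FOS (−0.78, SE 0.503, adjusted p = 0.767) and NR4A1 (−0.31, adjusted p = 0.82) overlapped between the groups. DESeq2 called 2 members, CCN1 and IER5 (adjusted p = 0.026 and 0.0384), where it called 2.49% of all tested genes, and limma-voom called 0, where it called 0.25%.

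By counts, 27 of 35 members lay below 0 in THX against Long pools, where 49.7% of all tested genes did, and their median log2 difference was −0.23, where that of all tested genes was 0.00. Both THX pools lay below both Long pools for 12 members (34.3%), against 18.7% of all tested genes. They lay above for 2, DUSP4 and BTG1 (5.71%, against 18.5%). By role, all 3 EGR factors and all 3 IER genes were below 0, with medians of −0.87 and −0.40, as were 6 of 7 AP-1 subunits (median −0.27), 4 of 5 KLF factors and MYC (−0.18) and 3 of 5 phosphatases (−0.08). Without THX pool 1 the median of the members was −0.10, with 23 of 35 below 0, and without THX pool 2 it was −0.42.

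**Figure D3:**
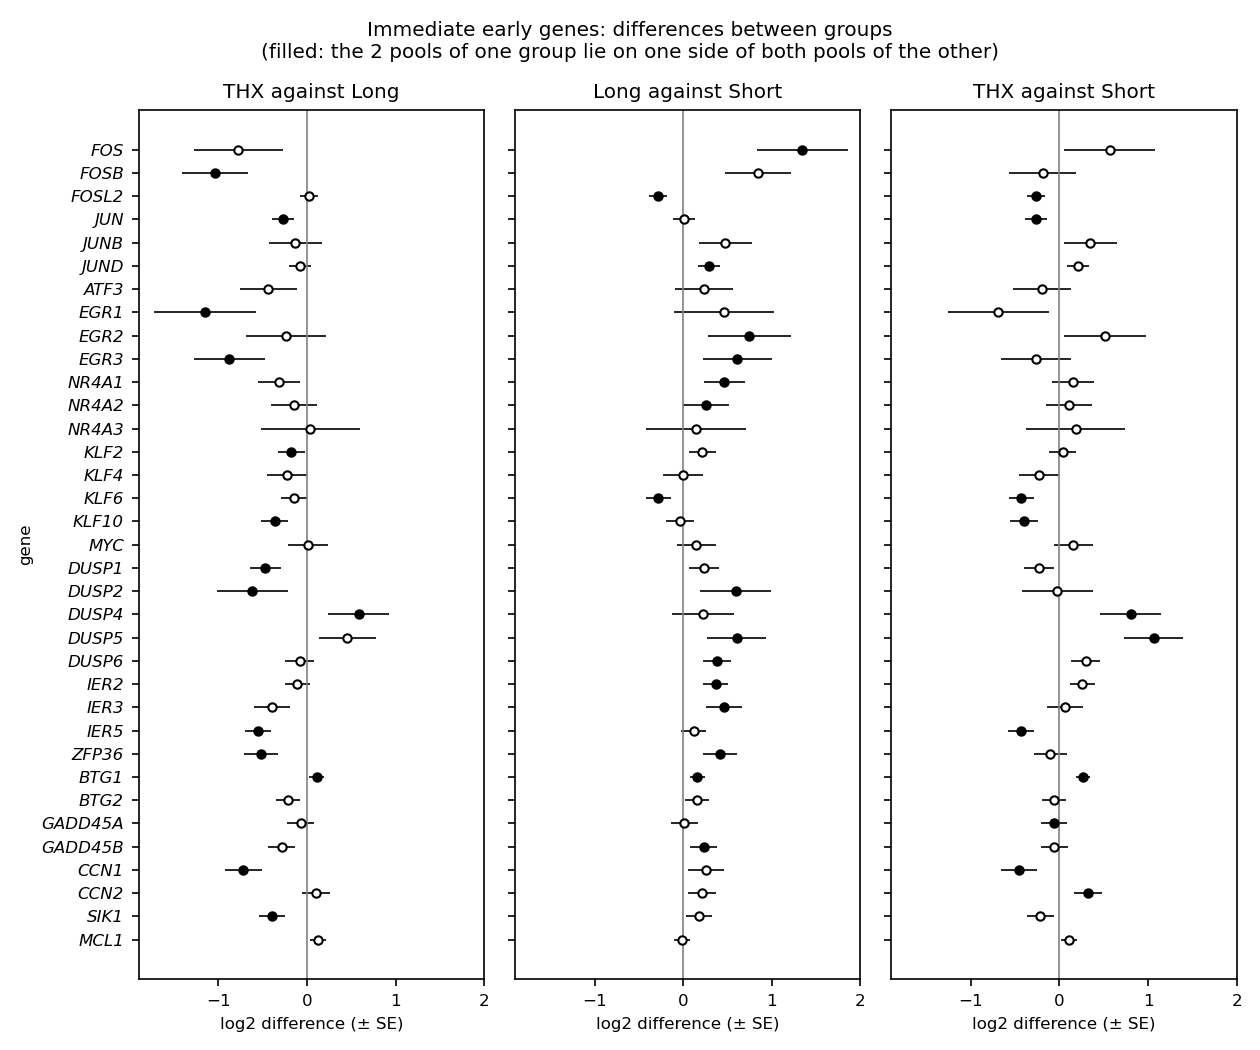
Log2 difference of each of the 35 genes in the 3 comparisons, with bars of 1 SE from the fit to all 6 pools and a line at 0; filled points mark genes whose pools do not overlap between the 2 groups. Most points lie left of 0 in THX against Long and right of 0 in Long against Short, and on both sides in THX against Short; no point passed the adjusted threshold.

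The comparison of Long with Short pools asks about day length in ewes with a thyroid. No member passed (adjusted p under 0.05 by edgeR), nor did any of the tested genes (0%). At an unadjusted p under 0.05 were 3 members, 8.57% against 13.8% of all tested genes. FOS and IER2 were higher in Long pools (6.47% of all tested genes were) and FOSL2 lower (7.33%). DESeq2 and limma-voom called 0 members, where DESeq2 called 1.12% of the genes it tested. FOSL2 averaged 77.0 ± 6.72 CPM in Long, against 93.8 ± 9.28 CPM in Short (log2 difference −0.29, SE 0.103, adjusted p = 0.342). FOS averaged 10.4 ± 3.21 CPM in Long, against 4.14 ± 2.37 CPM in Short (log2 difference 1.34, SE 0.513, adjusted p = 0.349). IER2 had a log2 difference of 0.37, DUSP6 of 0.38 and JUND of 0.29 (adjusted p = 0.349, 0.362 and 0.367). FOSB was at 0.85 (SE 0.374, adjusted p = 0.369) and EGR1 at 0.46 (SE 0.565, adjusted p = 0.721).

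In this comparison 30 of 35 members lay above 0 and 5 below (14.3%, against 50.3% of all tested genes below 0), with a median of 0.24. Both Long pools lay above both Short pools for 14 members (40%, against 26.7% of all tested genes) and below for 2, FOSL2 and KLF6 (5.71%, against 26.8%). All 3 EGR factors, all 3 NR4A receptors, all 5 phosphatases and all 3 IER genes were above 0, as were all 5 RNA decay and growth arrest genes, both CCN genes and 6 of 7 AP-1 subunits. Of the KLF factors and MYC 3 of 5 were below 0 (median 0.00), and MCL1 was at −0.01. This count rested on Short pool 1. Without it the median was 0.028 and 14 of 35 members were below 0, while without Short pool 2 the median was 0.43 with 3 below 0. The comparisons of THX with Long and of Long with Short use the same Long pools, so that a high Long value gives opposite signs in both.

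In THX against Short pools, which differ in both thyroid and day length, the members took no common side. This comparison uses the THX and Short pools of the other 2 comparisons. Of 35 members 18 were below 0 (51.4%, against 51% of all tested genes), with a median of −0.02 for the members and −0.01 for all tested genes. No member passed edgeR's test, where 0.916% of all tested genes did. At an unadjusted p under 0.05 were 6 members (17.1%, against 22.6%), 2 of them higher and 4 lower (10.8% and 11.8% of all tested genes). DUSP5 averaged 2.27 ± 0.852 CPM in THX, against 1.10 ± 0.196 CPM in Short (log2 difference 1.06, SE 0.329, adjusted p = 0.14). BTG1 averaged 171 ± 0.463 CPM in THX, against 142 ± 12.5 CPM in Short (log2 difference 0.27, SE 0.0833, adjusted p = 0.142). KLF6, IER5, FOSL2 and KLF10 were lower in THX pools, with log2 differences of −0.43, −0.43, −0.27 and −0.40 (adjusted p = 0.157, 0.157, 0.194 and 0.195). Both THX pools lay below both Short pools for 7 members (20%, against 26.7%) and above for 4 (11.4%, against 25.7%). DESeq2 called BTG1 alone among the members (adjusted p = 0.0487), where it called 12.1% of the genes it tested, and limma-voom called 0, where it called 0.977%. The sign of the median turned with the pool left out, at 0.18 without THX pool 1, −0.21 without THX pool 2, −0.12 without Short pool 1 and 0.10 without Short pool 2.

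**Figure D4:**
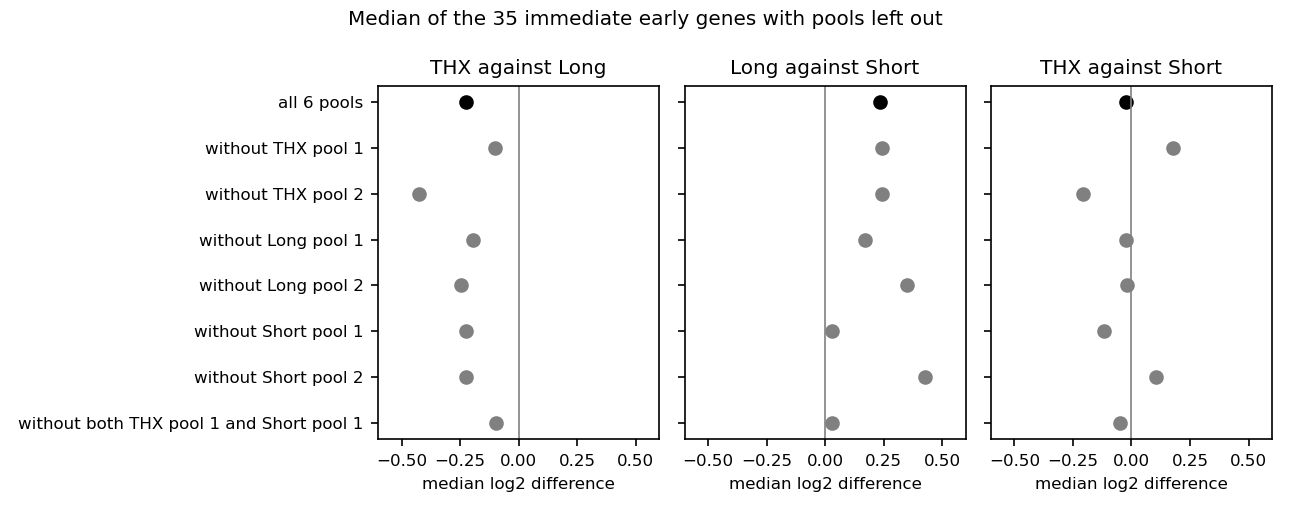
Median log2 difference of the 35 genes in each comparison (panels) for all 6 pools (black) and with the named pools left out (grey). The median in Long against Short is 0.028 without Short pool 1, the median in THX against Long stays below 0 throughout, and that in THX against Short lies on either side of 0.

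IER5 and CCN1 kept their sign in THX against Long under every alternative run, from −0.69 to −0.40 for IER5 and from −1.06 to −0.44 for CCN1 on the log2 scale. Of the 105 log2 differences of members, 62 kept their sign under every alternative, 24 of 35 in THX against Long, 22 in Long against Short and 16 in THX against Short.

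The inputs and outputs of the pathway were described from further lists. As background for these lists and the markers below, shares over all genes are given for THX against Long, Long against Short and THX against Short. An unadjusted p under 0.05 was reached by 9.08%, 13.8% and 22.6% of all tested genes. DESeq2 called 2.49%, 1.12% and 12.1% of the genes it tested. Of 28 genes for kinases and factors that act upstream of immediate early genes, 0 passed in THX against Long and in Long against Short, and 1 passed in THX against Short, in the downward direction (3, 4 and 6 at an unadjusted p under 0.05; 0, 0 and 2 by DESeq2; 0, 0 and 1 by limma-voom). That gene, RPS6KA3, encodes RSK2, an ERK-activated kinase of CREB and SRF. It had 41.2 and 40.3 CPM in THX, 49.5 and 52.3 CPM in Long and 65.4 and 58.8 CPM in Short pools, and fell in THX against Short pools (log2 difference −0.61, SE 0.0837, adjusted p = 0.033). It passed in 1 of 6 single omissions of a pool, that of THX pool 1, and its adjusted p reached 0.184 without Short pool 1. MRTFA, an actin-regulated coactivator of SRF, had 124 and 116 CPM in THX, 100.6 and 99.99 CPM in Long and 94.7 and 94.1 CPM in Short pools without passing (adjusted p = 0.291 against Long and 0.074 against Short). Against Short it passed by DESeq2 (adjusted p = 0.000938) and without a filter on low counts (adjusted p = 0.041).

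Of 30 tested later targets of growth factor and cytokine signalling, 0 passed in any comparison by edgeR or limma-voom. At an unadjusted p under 0.05 were 5 in THX against Long, 2 in Long against Short and 7 in THX against Short, and DESeq2 called 2, 1 and 6. ETV4, an ETS factor induced by ERK signalling, had 23.1 and 21.1 CPM in THX, 13.3 and 7.40 CPM in Long and 7.52 and 10.3 CPM in Short pools. Both THX pools thus lay above the other 4 (log2 difference from Long 1.10, SE 0.277, adjusted p = 0.258, and from Short 1.32, SE 0.279, adjusted p = 0.0789). Its relative ETV5 had 37.1 and 34.0 CPM in THX, 26.4 and 17.9 CPM in Long and 21.8 and 24.1 CPM in Short pools. DESeq2 called ETV4 in both of these comparisons (adjusted p = 0.00465 and 7.56e-05). The list as a whole had medians of 0.00 in THX against Long, 0.12 in Long against Short and 0.14 in THX against Short.

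Lists of heat shock, hypoxia and glucocorticoid response genes were described as well. Whether they reflect the state of the tissue at collection was not tested. Of 16 heat shock genes, 0 passed in any comparison by edgeR or limma-voom. An unadjusted p under 0.05 was reached by 6 in THX against Long, 7 in Long against Short and 5 in THX against Short. For all tested genes these shares were 9.08%, 13.8% and 22.6%. DESeq2 called 3, 3 and 4 of the 16, where it called 2.49%, 1.12% and 12.1% of the genes it tested. By sign, 15 of 16 lay above 0 in Long against Short (median 0.13), 5 of 16 in THX against Long (median −0.10). HSPA1A, the stress-inducible HSP70, had 29.6 and 30.9 CPM in THX, 73.2 and 75.3 CPM in Long and 52.0 and 30.8 CPM in Short pools. Both Long pools stood above the rest (THX against Long, log2 difference −1.30, SE 0.217, adjusted p = 0.104), and the adjusted p ran from 2.65e-07 to 0.425 over the alternatives. HSPA6, another inducible HSP70, had 5.05 and 4.85 CPM in THX, 10.5 and 13.9 CPM in Long and 5.72 and 6.63 CPM in Short pools (THX against Long, adjusted p = 0.0589). Of 20 hypoxia response genes 0 passed in any comparison by edgeR (medians 0.02, 0.06 and 0.07), with 3, 1 and 6 at an unadjusted p under 0.05. DESeq2 called 0, 0 and 2 of them and limma-voom 0. Of 13 glucocorticoid response genes, DUSP1 among them, KLF9 and SGK1 fell in THX against Long and in THX against Short. In each of these comparisons 6 of 13 were at an unadjusted p under 0.05, limma-voom called 2, and DESeq2 called 2 against Long and 5 against Short. In Long against Short 0 passed (1 at an unadjusted p under 0.05, 0 by DESeq2 and limma-voom). KLF9, also a target of the thyroid hormone receptor, had 36.1 and 34.1 CPM in THX, 93.2 and 89.9 CPM in Long and 99.98 and 88.3 CPM in Short pools. Both THX pools lay far below the other 4 (THX against Long, log2 difference −1.38, SE 0.0892, adjusted p = 0.0053), and the call was missed only without Long pool 2 (adjusted p = 0.0882). SGK1, a kinase that regulates sodium transport, had a log2 difference of −0.80 in THX against Long (adjusted p = 0.0272), a call kept in 1 of 6 single omissions, that of THX pool 2. In THX against Short it was at −0.85 (adjusted p = 0.0209) and was kept in 2 of 6, those of either THX pool.

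The levels of these lists by pool ran only in part with the immediate early genes. The heat shock list was at 0.01 and −0.12 in THX, 0.11 and 0.04 in Long, and −0.03 and −0.13 in Short. Both Long pools were thus highest, as for the immediate early genes. Its lower THX and Short pools, however, were the ones in which the immediate early genes were higher. Hypoxia response genes stayed between −0.06 and 0.05 in every pool. The further signalling targets were lowest in Short pool 1, at −0.23, but at 0.04 in THX pool 1. How and when the tissue was collected is not given in the sources used here, and its part in these levels was not tested.

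Markers of other cell types moved with the pools as well. In bulk tissue, fewer cells of a type and less RNA per cell cannot be told apart. The 11 tested fibroblast and leptomeningeal markers were at −0.50 and −0.15 in THX, 0.11 and −0.06 in Long and 0.00 and 0.32 in Short pools, so the lower pool within THX and Short was pool 1 there too. Their summed level, which the most abundant markers set, was 2910.4 and 3714 CPM in THX, 2708 and 2619.9 CPM in Long and 2059.9 and 2408 CPM in Short pools. LUM, a matrix proteoglycan, fell in THX against Long (log2 difference −0.74, adjusted p = 0.0314) and in THX against Short (−0.60, adjusted p = 0.0351). IGFBP2, a binding protein of insulin-like growth factors, rose in THX against Short (1.01, adjusted p = 0.0237). Leaving out 1 pool kept the call of LUM in 0 of 6 and 1 of 6 fits and that of IGFBP2 in 2 of 6. At an unadjusted p under 0.05 were 5, 2 and 6 of the 11 in THX against Long, Long against Short and THX against Short, and DESeq2 called 3, 1 and 5. Macrophage markers, of which all 10 in the file were tested, were at −0.16 and −0.05 in THX, 0.13 and 0.24 in Long and −0.19 and 0.00 in Short pools. All 10 lay below 0 in THX against Long and above 0 in Long against Short, with 0 past edgeR's test (3 and 1 at an unadjusted p under 0.05, 0 by DESeq2 and limma-voom), and their summed level was 227 and 242 CPM in THX, 267 and 282 CPM in Long and 211 and 248 CPM in Short pools. Lymphocyte markers (10 tested) were at −0.23 and −0.08 in THX, 0.06 and 0.09 in Long and −0.11 and 0.26 in Short pools. Their summed level was 24.0 and 29.2 CPM in THX, 32.5 and 32.1 CPM in Long and 28.0 and 36.0 CPM in Short pools.

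Vessel markers differed mainly between the Short pools. The 14 endothelial markers were at −0.01 and −0.04 in THX, 0.03 and −0.03 in Long and −0.11 and 0.19 in Short pools, with summed levels of 1129 and 1162, 1226 and 1159, and 1081 and 1315 CPM in THX, Long and Short. The 10 pericyte and smooth muscle markers were at −0.14 and −0.06 in THX, 0.05 and −0.07 in Long and −0.02 and 0.38 in Short pools, with summed levels of 1398 and 1559.7, 1673 and 1608, and 1626 and 1951 CPM. The 14 epithelial markers were at 0.00 and −0.09 in THX, −0.02 and −0.01 in Long and 0.14 and 0.03 in Short pools. Within Short they were thus higher in pool 1, where both vessel lists were lower than in pool 2. The summed level of all 15 epithelial markers, which the most abundant ones set, ran the other way. It was 97356 CPM in Short pool 1, the lowest of the 6 pools, and 102685 CPM in Short pool 2. HTR2C, a serotonin receptor of the epithelium, fell in THX against Long (log2 difference −0.73, adjusted p = 0.0203) and in THX against Short (−1.39, adjusted p = 0.00168). KL, which encodes klotho, fell in THX against Short (−0.85, adjusted p = 0.033). Leaving out 1 pool kept the call of HTR2C in 0 of 6 and 6 of 6 fits and that of KL in 1 of 6. At an unadjusted p under 0.05 were 7, 6 and 8 of the 14, and DESeq2 called 4, 1 and 7. By sign, 8 of the 14 lay above 0 in THX against Long (median 0.05) and 6 below. In Long against Short 4 lay above 0 and 10 below (median −0.11), and in THX against Short 5 above and 9 below (median −0.04). Neutrophil markers (5 tested), ependymal markers (8) and markers of neurons and glia (12) had 0 genes past edgeR's test or limma-voom's in any comparison, as had the lymphocyte, endothelial, and pericyte and smooth muscle lists. In THX against Short, where these lists had the most, an unadjusted p under 0.05 was reached by 0 neutrophil, 5 ependymal, 4 neuron and glia, 1 lymphocyte, 5 endothelial and 4 pericyte and smooth muscle markers. DESeq2 called 0, 3, 2, 0, 2 and 1 of these in that comparison, and in the other comparisons only 1 neuron or glia marker, in THX against Long. None of the markers listed was at 0 counts in all 6 pools. The part of these cell types in the levels of the immediate early genes was not tested.

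**Figure D5:**
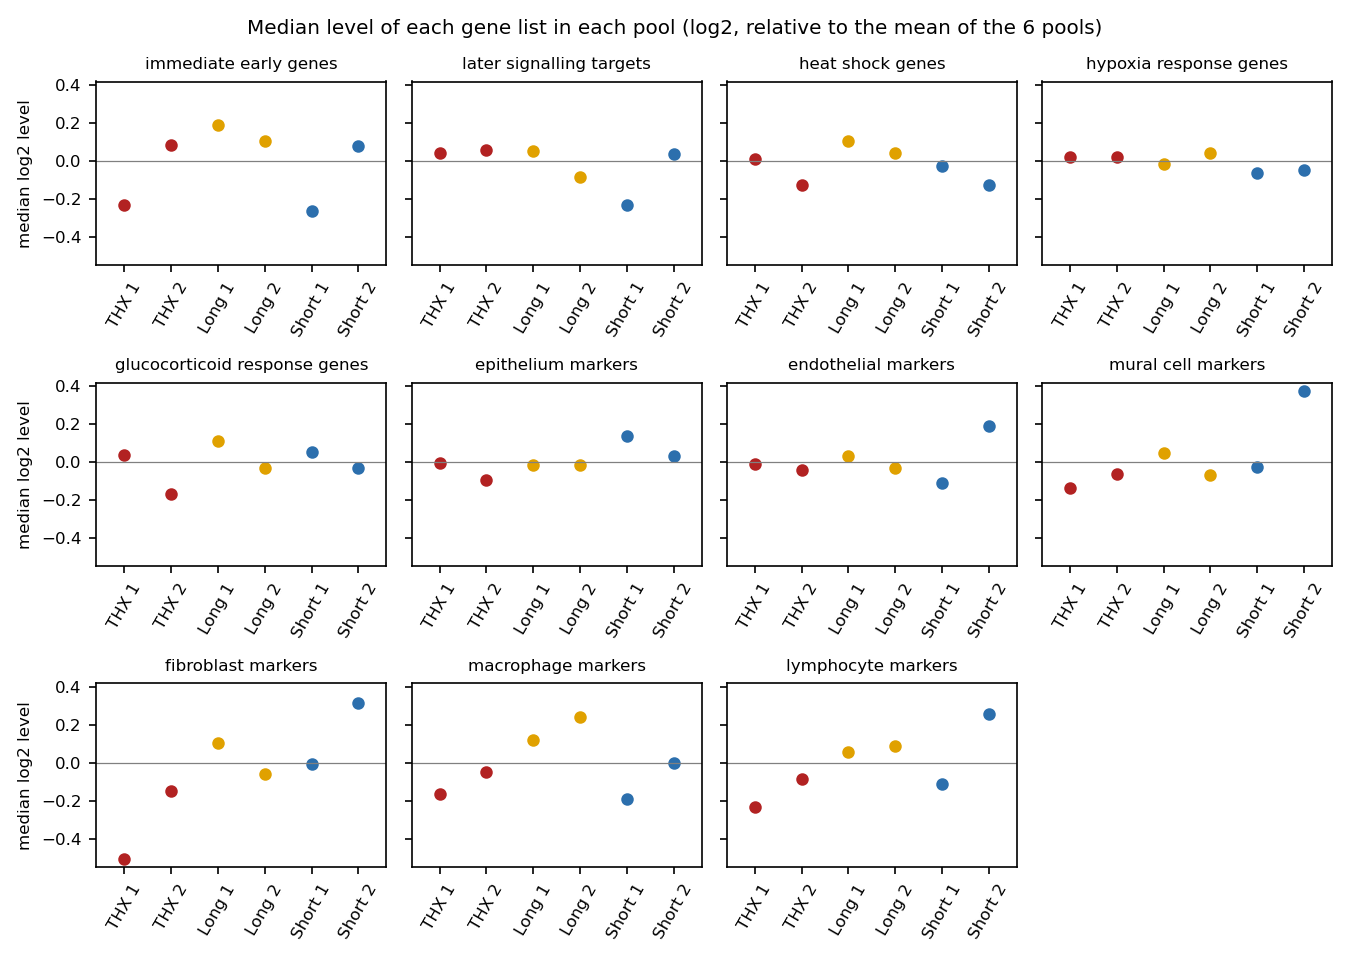
Median level of the immediate early genes and of 10 other gene lists in each pool (log2, relative to the mean of the 6 pools), with THX pools red, Long pools yellow and Short pools blue. THX pool 1 and Short pool 1 are the 2 lowest for the immediate early genes (−0.23 and −0.26). The same holds for the macrophage markers (−0.16 and −0.19) and the lymphocyte markers (−0.23 and −0.11), whereas hypoxia response genes stay near 0.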

How the data were processed

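PolyA RNA of 6 choroid plexus pools was sequenced from stranded libraries, per the labels' protocols. The authors deposited raw counts per gene, not normalised. The submitters' processing notes name featureCounts 2.0.0, TopHat2 2.1.1, SAMtools 1.9, bcl2fastq 2.20, FastQC 0.11.8 and MultiQC 1.9 without roles. The sources used here state no genome build, annotation or strand setting, so counts of overlapping genes are uncertain.

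In R 4.3.3, edgeR 4.0.16 was run on all 18019 genes passing its default expression filter, with TMM factors and 1 mean per group (3 residual degrees of freedom, 3.96 prior). Quasi-likelihood F tests (2-sided) had their p-values adjusted after Benjamini and Hochberg across the whole table, with a threshold of 0.05. The SE is the log2 difference over the square root of F. DESeq2 1.42.0 and limma 3.58.1 served as alternatives, beside other scalings, filters, a pool-number term and leaving out pools. The 2 pools of a group differed by 15.8 to 70.1 times the counting variance, so none was a repeat of another. Members and lists were chosen with earlier results of these data known. Values in every pool are given for the 6 members with the lowest p in each comparison, the 6 with the highest CPM and 9 fixed ones; of other lists, mainly the 2 genes with the lowest p. DUSP4 and the markers that passed were added after its values were seen. The procedure was tested on simulated counts. No sequences were used here. Figures used Python 3.11.15 and matplotlib 3.10.9.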

Additional observations from a re-analysis of the deposited data

How the results depend on the processing

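The count of members past the test was 0 in every comparison with edgeR under each single omission and each other scaling and filter, and with limma-voom. DESeq2 called 2 members in THX against Long and 1 in THX against Short. Leaving out both THX pool 1 and Short pool 1 was an alternative chosen after seeing the data. It leaves 1 THX and 1 Short pool, which are assumed to vary like the rest. The members' medians were then −0.10, 0.028 and −0.05 in THX against Long, Long against Short and THX against Short. In THX against Short 20 of 35 members lay below 0, JUN (log2 difference −0.44) and KLF6 (−0.74) among them. Leaving out 1 pool moved the medians of the members over −0.42 to −0.10, 0.028 to 0.43 and −0.21 to 0.18 in the same order, and the counts of all genes called over 2 to 37, 0 to 4 and 10 to 1087, against 51, 0 and 165. All genes called were 448, 159 and 1761 by DESeq2. The split into higher and lower calls was 186 and 262 in THX against Long and 881 and 880 in THX against Short by DESeq2, against 9 and 42 and 57 and 108 by edgeR. Without a filter they were 204 in THX against Long and 908 in THX against Short, and with only the 4 pools compared 22 and 11. Total counts without TMM gave 259 in THX against Short (49 higher, 210 lower), where the median of all genes was then −0.11 and that of the members −0.13. Without both THX pool 1 and Short pool 1 they were 159, 2 and 1022. With a replicate block for the pool number the calls were 48, 0 and 392 and the members' medians −0.24, 0.25 and −0.03, with 0 members called. The numbers are not said to pair pools, and the correlations of their differences across genes were 0.10, −0.06 and 0.29 for THX with Long, Long with Short and THX with Short. The causes of these shifts were not tested. With 2 pools per group, only changes well above the spread between pools can pass.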

Other observations

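Blood carried over in the tissue could be read only from haemoglobin, since 1 of 4 red blood cell genes in the file had enough counts to be tested. HBB, the beta globin, had 4.08 and 4.59 CPM in THX pools, 1.77 and 53.5 CPM in Long pools and 0.509 and 0.478 CPM in Short pools. HBB in Long pool 2 stood far above the rest. Of the immediate early genes, 24 of 35 were higher in Long pool 1 than in Long pool 2, and 11 were lower. Of the tested genes within the members' range of mean level, 50.3% were lower in Long pool 1. The part of blood in the levels of the immediate early genes was not tested. HBB did not pass edgeR's test in any comparison (adjusted p = 0.579 in THX against Long, 0.342 in Long against Short and 0.236 in THX against Short), while DESeq2 called it in Long against Short.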
